A study of Rattus norvegicus with 20 samples.

Results

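The genes described here belong to the oligodendrocyte lineage, the glial cells that wrap axons in myelin. A list of 38 gene symbols was fixed by name, 14 of the precursor stage and 24 of the myelinating stage, and a row of the count table was a member where its symbol was on the list. Of the 32883 genes of the table, 35 were members, and 32 of these held enough reads for testing (13 of 13 precursor genes and 19 of 22 myelinating genes with a row). No row carried the symbol Lhfpl3, Tmem10 or Trf, of which RefSeq gives Tmem10 as a synonym of Opalin, itself a member.

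Oligodendrocyte precursors spread through the forebrain around birth, divide in response to platelet-derived growth factor and are kept in the lineage by the transcription factors Olig2 and Sox10. Some leave the cycle, pass through a short committed stage marked by Gpr17 and Bcas1, and then, under Myrf, switch on the genes for myelin proteins and for the galactolipids of the myelin sheath. In the rodent hippocampus this switch has hardly begun in the first postnatal week. Bilirubin, the yellow product of heme breakdown, is a known hazard for oligodendrocytes and for developing neurons.

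RNA with poly(A) tails was sequenced from the hippocampus of 20 Gunn rat pups at postnatal day 6, 1 library per pup and 5 pups per group. Gunn rats carry an inherited defect of bilirubin conjugation, so that homozygous pups (jj) are jaundiced and heterozygous pups (Nj) are not. Both genotypes were either left untreated or placed under light-emitting diodes from day 4 to day 6, in periods of 3 h on and 3 h off for 12 h in total. The study's design asks whether jaundice changes gene expression in the hippocampus, and whether phototherapy, the usual treatment of neonatal jaundice, does so in pups with and without jaundice. All groups carried the Gunn allele in at least 1 copy, so that no wild-type pup stood beside them, and each library came from 1 hippocampal lobe. Numbers after a group name below (untreated Nj 2) only name its libraries.

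Library totals ran from 16882652 counts in untreated jj 2 to 27112749 in untreated Nj 1. The labels' title prefixes differed between the groups: all light-treated libraries shared 1 prefix, the untreated jj libraries had another and the untreated Nj libraries had 3 more, so that light and title prefix cannot be told apart, and only the jj against Nj comparison under light lay within 1 prefix. Markers of neighbouring tissue varied from pup to pup. Ttr, the main transcript of the choroid plexus, exceeded 1000 CPM (a gene's counts scaled to a common library total) in 7 libraries (1 of untreated Nj, 1 of untreated jj, 2 of treated Nj and 3 of treated jj).

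The hippocampi held the RNA of precursors and of cells starting to differentiate, with little of late myelin. Mog, a surface protein of the outermost myelin layer, gave 5, 5, 4, 3 and 5 counts in the untreated Nj libraries, 2, 8, 2, 4 and 6 in untreated jj, 3, 2, 6, 3 and 5 in treated Nj and 8, 4, 6, 10 and 10 in treated jj. Mobp, a small cytoplasmic myelin protein, gave 4, 5, 0, 4 and 1 counts in untreated Nj, 23, 14, 0, 10 and 2 in untreated jj, 0, 0, 6, 1 and 2 in treated Nj and 3, 1, 6, 6 and 6 in treated jj. Mobp had no count in 4 libraries, and its highest count was in untreated jj 1. Opalin, a membrane protein of late oligodendrocytes, gave 0 to 5 counts per library and none in 3 of them. These 3 members lay below the count filter and were not tested. Mbp, which compacts the myelin membrane, was found at 49.6 to 90.8 CPM in the 20 libraries, and Cnp, an enzyme of the cytoplasmic channels of myelin, at 108 to 155 CPM.

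**Figure D1:**
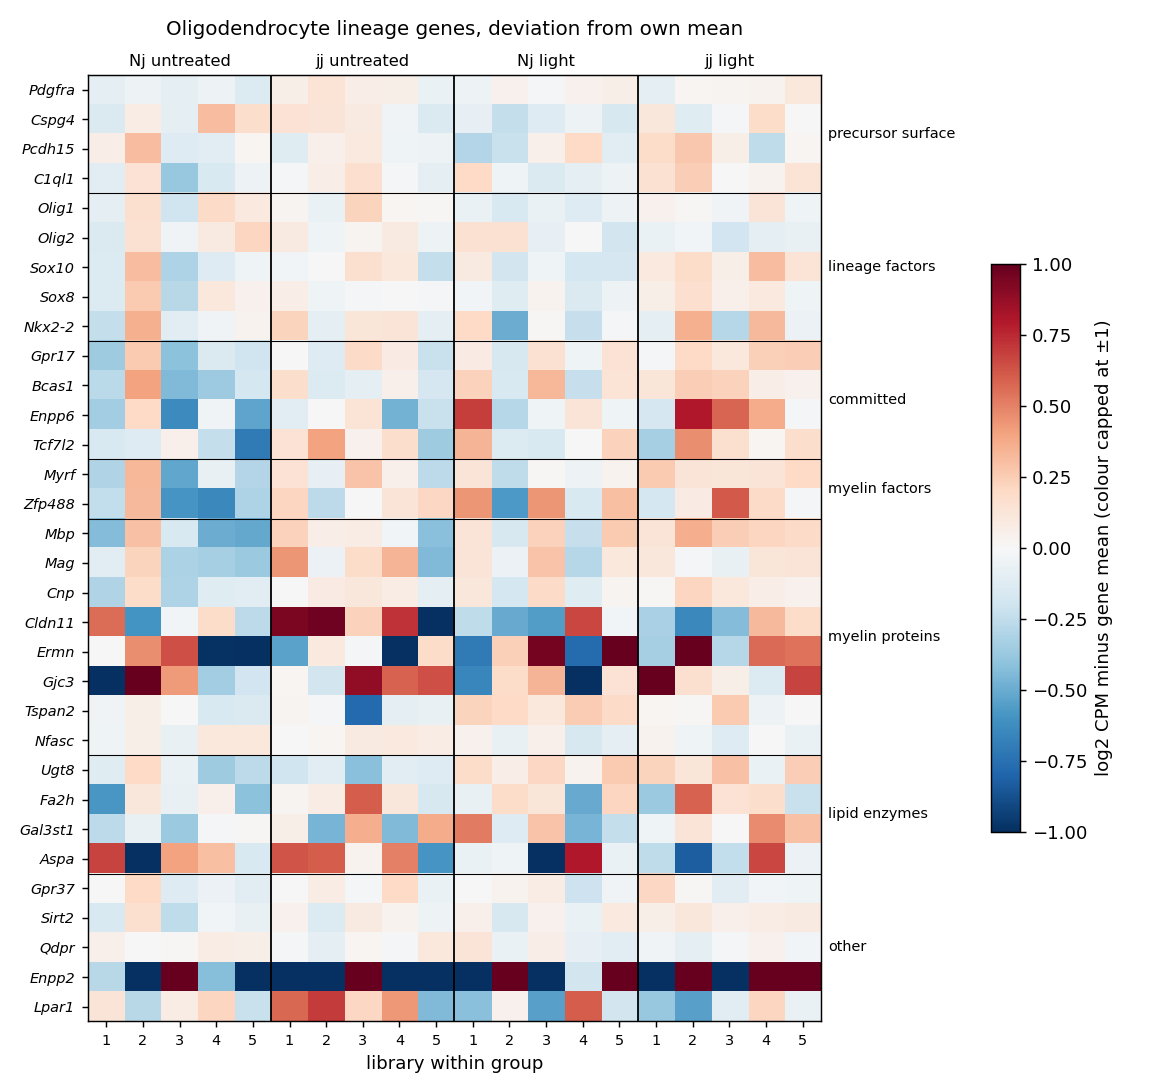
Deviation of each tested oligodendrocyte gene (rows, grouped by role) in each library (columns, grouped by genotype and light) from the gene's own mean over 20 libraries, in log2 CPM, with colour capped at 1 in either direction. Untreated Nj 2 is red over most rows of its block, while Enpp2 alternates between the strongest red and blue within every group.

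Few oligodendrocyte genes differed between the groups beyond the spread of the libraries. Fitted in 1 edgeR quasi-likelihood model over all 20 libraries with Benjamini-Hochberg adjustment over 15272 genes, 0 of 32 tested members passed an adjusted p of 0.05 in the comparison of jj with Nj without light, where 0% of all genes did. With light against none in Nj pups 0 of 32 members passed, against 4% of all genes, and in jj pups 0 of 32, against 0.164%. Under light, jj against Nj gave 0 of 32 members and 0% of all genes, and the genotype by light interaction gave 0 of 32 and 0%. With both genotypes averaged, light gave 1 of 32 members, against 10.1% of all genes (4.35% higher and 5.74% lower), and with both light states averaged, genotype gave 0 of 32 and 0%. The 1 call for light was thus a smaller share of the members than of all genes. At an unadjusted p of 0.05 the members numbered 1 for jj against Nj untreated (all genes 6.36%), 4 for light in Nj (18.1%), 2 for light in jj (13%), 2 for jj against Nj under light (6.62%), 1 for the interaction (3.41%), 6 for light averaged (24.6%) and 4 for genotype averaged (11.2%). DESeq2 on the same counts called 1 of 26 members with an adjusted p for light in jj (Ugt8), where it called 2.26% of all genes. For light averaged it called 3 of 29 (Ugt8, Tspan2 and Mbp), against 14.2% of all genes, and in the other comparisons 0 members. In bulk tissue, a change in the number of oligodendrocytes and a change in the RNA of each cell cannot be told apart.

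The 1 member that passed in edgeR's fit over all libraries was Ugt8, the galactosyltransferase that makes galactosylceramide, the most typical lipid of myelin. It was higher with light averaged over genotypes. Ugt8 stood at 16.4, 20.5, 17.1, 13.96 and 14.9 CPM in the 5 untreated Nj libraries and at 20.2, 18.7, 20.6, 18.3 and 21.4 CPM in the treated Nj libraries. In jj pups it stood at 15.6, 16.6, 13.4, 16.6 and 16.4 CPM without light and at 20.8, 19.5, 21.9, 17.1 and 21.2 CPM with light. All treated jj libraries lay above all untreated jj libraries, a separation seen in 2.96% of genes in that comparison (1.27% higher), whereas among Nj pups untreated Nj 2 lay inside the treated range. Averaged over the genotypes, Ugt8 was 1.24-fold higher with light (log2 0.31 ± 0.07 SE, 95% interval 0.17 to 0.45, edgeR adjusted p = 0.00472). Within genotypes the log2 difference was 0.26 ± 0.09 SE in Nj (edgeR adjusted p = 0.118) and 0.36 ± 0.09 SE in jj (adjusted p = 0.0949), so neither passed alone, and the interaction was 0.10 ± 0.13 SE (95% interval -0.18 to 0.37). The genotype difference of Ugt8 was -0.03 ± 0.07 SE averaged over the light states (95% interval -0.17 to 0.11).

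Markers of other cells and of the hippocampal region moved with light too, and their part in the Ugt8 result was not tested beyond the fits with covariates and without libraries given next. Of 7 neuronal markers, 4 rose with light averaged over genotypes, where 10.1% of all genes passed, and their summed level ran from 5486 to 6161 CPM in untreated Nj, 4970 to 6059 in untreated jj, 6183 to 6415 in treated Nj and 5748 to 6379 in treated jj. Of 7 astrocyte markers, 2 rose and 1 fell, and their sum ran from 2229 to 2733 CPM in untreated Nj, 2259 to 2621 in untreated jj, 2542 to 2773 in treated Nj and 2536 to 2769 in treated jj. Of 6 microglial markers P2ry12 rose (0.41 on the log2 scale, edgeR adjusted p = 0.000918), with sums of 81.8 to 92.03, 85.1 to 102.4, 88.01 to 103.5 and 92.7 to 107.6 CPM in the same order of groups, and of 7 tested markers of pericytes and endothelium Rgs5 rose (0.19, adjusted p = 0.00452), with sums of 278 to 289, 272 to 298, 272 to 312 and 275 to 290 CPM. All 5 transcription factor genes that mark hippocampal tissue had lower values with light, each at an unadjusted p under 0.05, and Neurod2 (-0.23) and Lhx2 (-0.14) passed (edgeR adjusted p = 0.0108 and 0.0312). Their sum ran from 402.7 to 435.4 CPM in untreated Nj and 387.8 to 436.7 CPM in untreated jj, against 308.5 to 386.9 CPM in treated Nj and 325.8 to 413.2 CPM in treated jj, so that the Nj groups did not overlap. Of 6 tested meningeal markers 5 had lower values with light, 4 of them at an unadjusted p under 0.05, with a lowest adjusted p of 0.0607 in edgeR. The sum of the 7 meningeal markers with a row ran from 312.8 to 506.9 CPM, 281 to 686 CPM, 323 to 522 CPM and 273 to 513 CPM in the same order of groups. A covariate was then added, the mean log2 CPM of the tested markers of a list. With that of the meninges, Ugt8 was 0.24 ± 0.07 SE higher on the log2 scale with light (edgeR adjusted p = 0.0389). With that of the choroid plexus, Ugt8 was 0.33 ± 0.07 SE higher (edgeR adjusted p = 0.00238). Without the 7 libraries rich in Ttr, light averaged over genotypes called 2 of 33 members, against 2.74% of all genes, namely Ugt8 (0.32 ± 0.08 SE, edgeR adjusted p = 0.0312) and Tspan2. None of the markers of these 6 lists with a row was at 0 in all libraries.

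**Figure D2:**
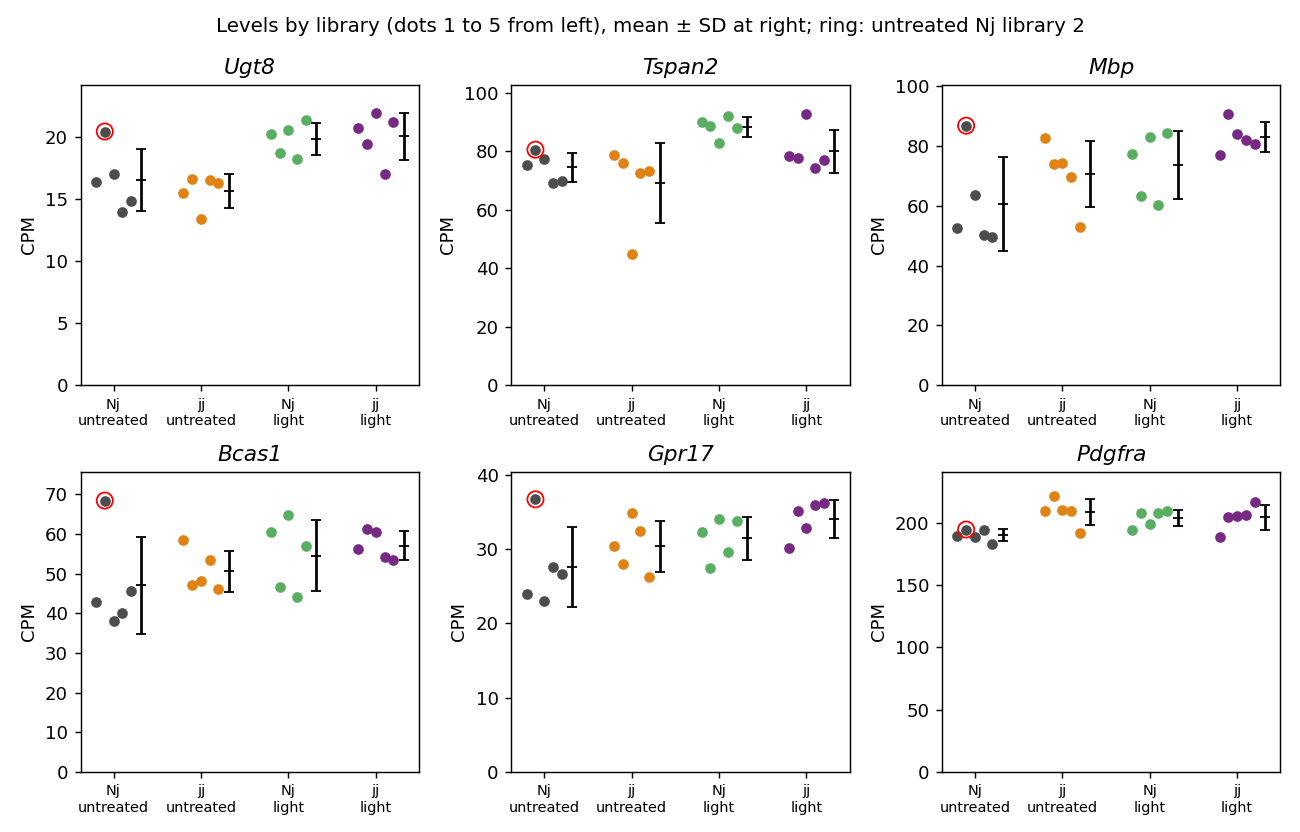
CPM of Ugt8, Tspan2, Mbp, Bcas1, Gpr17 and Pdgfra in each of the 5 libraries of each group, with the group mean ± SD to the right of the dots and a ring around untreated Nj 2. The Ugt8 dots of treated jj (17.1 to 21.9) lie above those of untreated jj (13.4 to 16.6), and the ringed library is the highest untreated Nj dot for Ugt8, Tspan2, Mbp, Bcas1 and Gpr17.

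Tspan2, a tetraspanin of the oligodendrocyte membrane, had the next lowest p of the members with light averaged over genotypes. It stood at 75.2, 80.5, 77.3, 69.2 and 69.8 CPM in untreated Nj and 89.8, 88.6, 82.8, 91.9 and 88.02 CPM in treated Nj. The jj pups had 78.5, 75.96, 44.9, 72.5 and 73.1 CPM without light and 78.2, 77.5, 92.6, 74.2 and 76.9 CPM with light. The Nj groups did not overlap, as held for 6.46% of genes there (3.07% higher), and in jj the untreated library 3 lay far below the rest. The log2 difference averaged over genotypes was 0.23 ± 0.07 SE with an edgeR adjusted p of 0.0541, just short of the threshold. Without untreated jj 3 the difference was 0.17 ± 0.04 SE and passed (edgeR adjusted p = 0.0061). It also passed without untreated Nj 2 (0.0468), untreated jj 1 (0.0376), untreated jj 2 (0.0447) or treated jj 4 (0.0498), in DESeq2 (0.0197), with the choroid plexus covariate (0.0144), without the 7 libraries rich in Ttr (0.0244) and with genes of a mean count of at least 10 (0.0497). In Nj alone it passed without untreated jj 3 (0.00733) and with the compared groups alone (0.0143). Untreated jj 3, the lowest library for both Ugt8 and Tspan2 in its group, was also the library with the most Ttr, at 9662 CPM.

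The sequences before the starts of Ugt8 and Tspan2, the members with the lowest p for light averaged over genotypes, are shown to set them beside the promoters of Cnp and Mag further on. RefSeq's promoter table for build GRCr8 held 26 of the 38 listed symbols, and each stretch below is the 250 bases before the gene's start, read 5′ to 3′ on the gene's strand. The motifs searched were short, and were sought on both strands, namely the Sox core ACAAAG, the E-box CAGCTG bound by Olig proteins, its variant CAGATG, and the Myrf motif CTGGCAC. Letters of a match are in capitals, and these stretches had none for Ugt8 (chr2:217007168-217007417, minus strand, 81.2% G and C) or Tspan2 (chr2:192866030-192866279, plus strand, 72% G and C).
Ugt8: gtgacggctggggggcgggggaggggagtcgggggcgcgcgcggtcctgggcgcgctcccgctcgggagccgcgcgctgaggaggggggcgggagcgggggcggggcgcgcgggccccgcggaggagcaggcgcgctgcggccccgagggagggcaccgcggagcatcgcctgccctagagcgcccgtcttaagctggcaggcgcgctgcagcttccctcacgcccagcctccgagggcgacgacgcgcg
Tspan2: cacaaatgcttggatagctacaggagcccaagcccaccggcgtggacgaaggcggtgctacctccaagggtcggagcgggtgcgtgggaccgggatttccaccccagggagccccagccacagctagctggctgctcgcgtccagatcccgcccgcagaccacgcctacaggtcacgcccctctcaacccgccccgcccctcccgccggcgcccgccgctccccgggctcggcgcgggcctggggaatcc

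**Figure D3:**
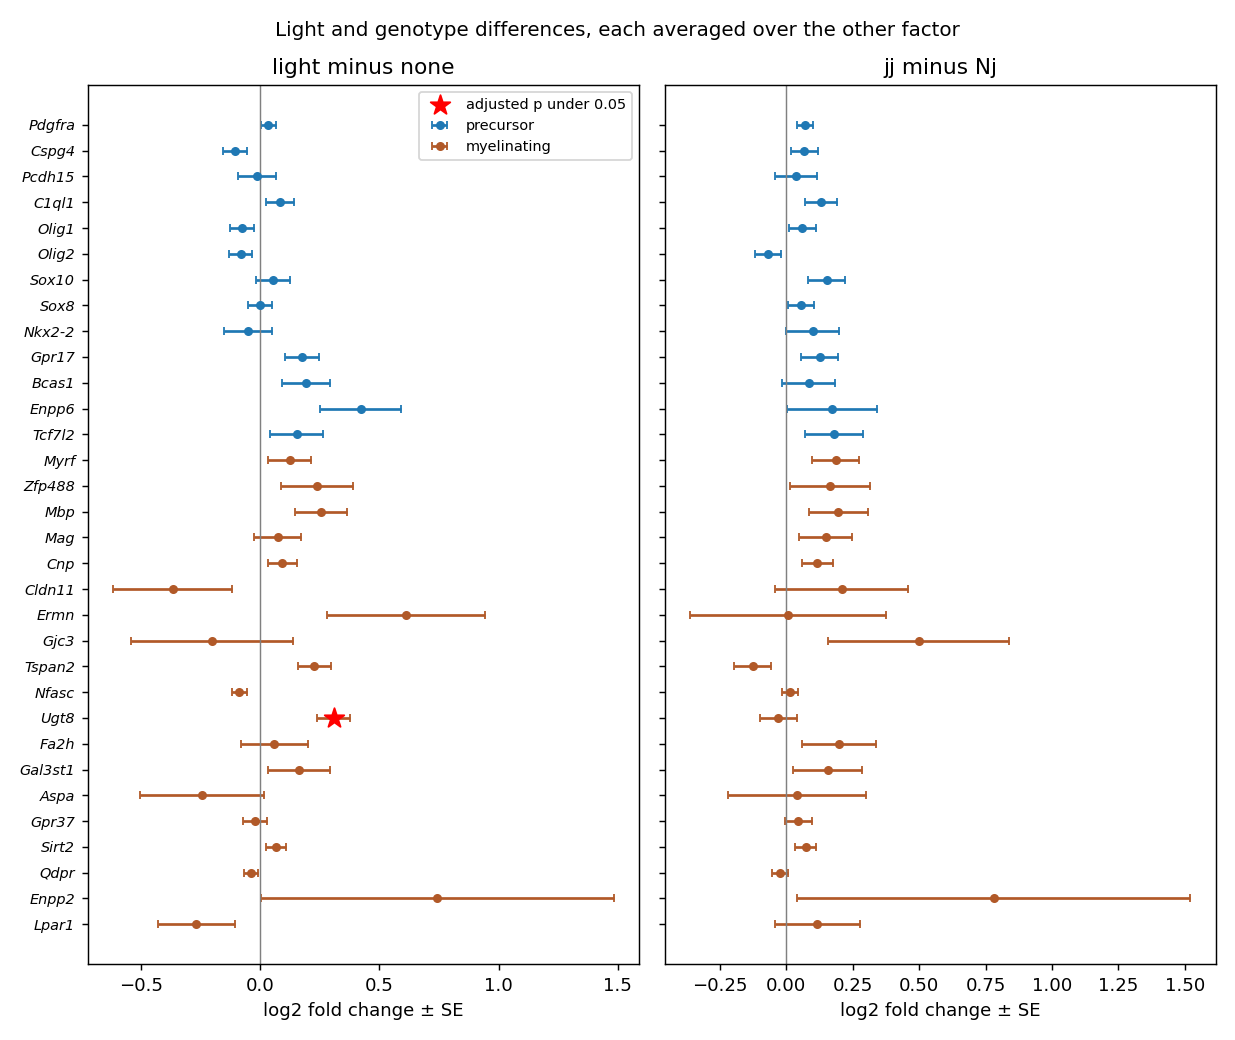
Log2 fold change ± SE of the 32 tested members for light against none averaged over both genotypes (left) and for jj against Nj averaged over both light states (right), precursor genes in blue and myelinating genes in brown. A star marks an adjusted p under 0.05, which only Ugt8 reached among these members in these 2 comparisons, and 28 of 32 points lie right of 0 for genotype.

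No precursor surface gene passed the test. Pdgfra, the receptor through which platelet-derived growth factor drives precursor division, stood at 189, 194, 189, 194 and 183 CPM in untreated Nj and 209.6, 221, 210.4, 209 and 192 CPM in untreated jj. With light it stood at 194, 207, 199, 208 and 209 CPM in Nj and 188, 204, 206, 206 and 217 CPM in jj. Only untreated jj 5 overlapped the untreated Nj range, and the difference of jj from Nj was 0.13 ± 0.04 SE on the log2 scale, with an unadjusted p of 0.0039 and an adjusted p of 0.775 in edgeR. Under light the same difference was 0.01 ± 0.04 SE, and the interaction of -0.13 ± 0.06 SE had an unadjusted p of 0.0395 and an adjusted p of 1 in edgeR. Pdgfra was among the steadiest genes of the table: its SD within groups was 0.06 on the log2 scale, at percentile 5.07 of all tested genes.

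The other 3 precursor surface genes spread more. Cspg4, the NG2 proteoglycan, ran from 44.99 to 65.5 CPM and was -0.21 ± 0.08 SE on the log2 scale with light in Nj pups (edgeR unadjusted p = 0.013, adjusted p = 0.134) and -0.00 ± 0.08 SE in jj pups. Pcdh15, a protocadherin, ran from 8.01 to 12.2 CPM and C1ql1, a secreted C1q-like protein, from 14.6 to 22.5 CPM. Their differences with light averaged over genotypes were -0.01 ± 0.08 SE and 0.08 ± 0.06 SE on the log2 scale.

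The lineage transcription factors did not pass either. Olig2, which specifies the lineage, stood at 43.7, 53.5, 47.2, 51.5 and 56.04 CPM in untreated Nj and 51.4, 46.9, 49.3, 51.5 and 46.7 CPM in untreated jj. With light it stood at 53.5, 53.7, 45.5, 48.3 and 42.5 CPM in Nj and 46.1, 47.3, 42.2, 45.3 and 45.8 CPM in jj. All 4 ranges overlapped, and the log2 difference with light averaged over genotypes was -0.08 ± 0.05 SE (95% interval -0.18 to 0.02). Sox10, which keeps the lineage and later drives myelin genes, stood at 26.6, 36.3, 23.6, 26.8 and 28.3 CPM in untreated Nj and 28.8, 29.2, 32.6, 31.5 and 24.8 CPM in untreated jj. With light it stood at 31.2, 25.7, 28.4, 25.9 and 26.1 CPM in Nj and 31.3, 33.2, 30.4, 36.2 and 32.2 CPM in jj. Under light the Sox10 values of jj lay above 4 of the 5 Nj values, with treated Nj 1 inside the jj range, and the log2 difference was 0.25 ± 0.09 SE (edgeR unadjusted p = 0.0128, adjusted p = 0.724).

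Olig1, the partner of Olig2 in later differentiation, was the only member whose jj and Nj ranges were apart under light, at 121.2 to 136.8 CPM against 112.5 to 120.8 CPM. Such a separation was seen in 1.2% of all genes there (0.596% higher), and the log2 difference was 0.11 ± 0.06 SE with an edgeR adjusted p of 0.724. Sox8, a close relative of Sox10, ran from 25.2 to 36.6 CPM, and Nkx2-2, a homeobox factor of early differentiation, from 3.08 to 5.57 CPM. With light averaged over genotypes they stood at -0.00 ± 0.05 SE and -0.05 ± 0.10 SE on the log2 scale.

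The 4 genes of the committed stage had positive values in each of the 4 pairwise comparisons, and none passed the test. Positive values were seen in 51% of all genes for jj against Nj untreated, 50.3% for light in Nj, 49.8% for light in jj and 51.2% for jj against Nj under light. The comparisons share groups, so their signs are not independent, and the share of all genes positive in all 4 was not counted. Gpr17, an orphan receptor switched on briefly as precursors commit, stood at 23.96, 36.7, 22.99, 27.7 and 26.7 CPM in untreated Nj and 32.4, 27.5, 34.1, 29.6 and 33.8 CPM in treated Nj. Levels in jj pups were 30.4, 28.1, 34.9, 32.4 and 26.2 CPM without light and 30.1, 35.1, 32.9, 36.03 and 36.2 CPM with light. The untreated Nj range enclosed all others because of library 2, whose neighbours lay at 23.0 to 27.7 CPM. With light averaged over genotypes the log2 difference was 0.18 ± 0.07 SE (edgeR adjusted p = 0.139).

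Bcas1, a marker of oligodendrocytes about to myelinate, stood at 42.8, 68.4, 38.1, 40.1 and 45.6 CPM in untreated Nj and 60.5, 46.5, 64.9, 43.98 and 56.9 CPM in treated Nj. In jj pups it stood at 58.4, 47.1, 48.2, 53.4 and 46.1 CPM without light and 56.1, 61.2, 60.5, 54.1 and 53.4 CPM with light. Again untreated Nj 2 was the highest of all 20, and the log2 difference with light averaged over genotypes was 0.19 ± 0.10 SE (edgeR adjusted p = 0.233).

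Enpp6, a choline phosphodiesterase of newly formed oligodendrocytes, was scarce, at 0.933, 1.37, 0.754, 1.16 and 0.817 CPM in untreated Nj and 1.93, 0.968, 1.15, 1.30 and 1.15 CPM in treated Nj. The jj pups had 1.09, 1.18, 1.31, 0.843 and 1.01 CPM without light and 1.06, 2.08, 1.79, 1.54 and 1.17 CPM with light. The groups overlapped, and the log2 difference with light averaged over genotypes was 0.42 ± 0.17 SE (edgeR adjusted p = 0.112). Tcf7l2, a Wnt pathway factor of the same stage, ran from 4.30 to 9.68 CPM, lowest in untreated Nj 5, and stood at 0.31 ± 0.15 SE on the log2 scale for jj against Nj without light and 0.29 ± 0.15 SE for light in Nj.

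Myrf and Zfp488, factors that turn on myelin genes, were likewise positive in all 4 pairwise comparisons, which share groups, and passed in none. Myrf ran from 10.6 to 19.1 CPM and was 0.19 ± 0.09 SE for jj against Nj averaged over light states (edgeR unadjusted p = 0.0425, adjusted p = 0.436). Zfp488 ran from 1.63 to 3.93 CPM, with a log2 difference of 0.24 ± 0.15 SE for light averaged over genotypes.

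In edgeR's fit over all libraries no myelin protein gene passed in any comparison, while the alternatives that called Tspan2 are given above and DESeq2 also called Mbp for light averaged. Mbp stood at 52.5, 86.9, 63.6, 50.2 and 49.6 CPM in untreated Nj and 77.5, 63.2, 83.2, 60.2 and 84.6 CPM in treated Nj. Levels in jj pups were 82.8, 74.1, 74.3, 69.5 and 52.96 CPM without light and 77.2, 90.8, 83.95, 82.1 and 80.8 CPM with light. The treated jj libraries were all at 77.2 CPM or more, a level reached by 1 library each of untreated Nj and untreated jj and by 3 of treated Nj. The log2 difference was 0.26 ± 0.11 SE for light averaged over genotypes (edgeR adjusted p = 0.138) and 0.20 ± 0.11 SE for genotype averaged over light (adjusted p = 0.463).

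Cnp stood at 109, 151, 108, 123 and 124 CPM in untreated Nj and 144, 118, 152, 123 and 136 CPM in treated Nj. In jj pups it stood at 134, 141, 145, 140.3 and 125 CPM without light and 135, 155, 144, 139.8 and 138 CPM with light. The ranges overlapped, and the log2 difference of jj from Nj averaged over light was 0.12 ± 0.06 SE (edgeR unadjusted p = 0.0507, adjusted p = 0.444). Mag, a myelin lectin that faces the axon, stood at 7.72, 9.75, 6.69, 6.62 and 6.45 CPM in untreated Nj and 9.10, 8.01, 10.2, 6.85 and 8.99 CPM in treated Nj. The jj pups had 11.3, 8.02, 9.47, 10.5 and 6.13 CPM without light and 9.05, 8.28, 7.91, 9.10 and 9.15 CPM with light. The jj values without light ran both above and below the whole untreated Nj range, and the log2 difference was 0.28 ± 0.14 SE without light and 0.01 ± 0.14 SE under light, neither past the test.

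The stretches before the starts of Cnp (chr10:86011254-86011503, plus strand) and Mag (chr1:95291045-95291294, minus strand) are shown because each held a Sox core and a Myrf motif, in capitals, and Cnp held the E-box CAGCTG as well. Opalin, with too few reads to be tested, held all 3 and is not shown. In Mag the Sox core lies on the opposite strand and reads CTTTGT.
Cnp: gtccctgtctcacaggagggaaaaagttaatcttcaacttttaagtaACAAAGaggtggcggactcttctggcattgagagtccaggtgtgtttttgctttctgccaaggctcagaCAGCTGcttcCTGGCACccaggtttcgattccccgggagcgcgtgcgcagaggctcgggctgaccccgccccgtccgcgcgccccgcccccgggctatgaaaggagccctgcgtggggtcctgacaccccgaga
Mag: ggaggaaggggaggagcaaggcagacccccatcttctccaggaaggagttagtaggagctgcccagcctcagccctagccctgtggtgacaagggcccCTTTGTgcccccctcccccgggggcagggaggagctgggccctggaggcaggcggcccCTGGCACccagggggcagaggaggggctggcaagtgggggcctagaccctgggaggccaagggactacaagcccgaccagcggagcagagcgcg
Of all 33469 promoter stretches in the table, 16.3% held ACAAAG, 12% CAGCTG, 14% CAGATG and 3.78% CTGGCAC. Of the 26 members with a stretch, 7 held ACAAAG, 5 held CAGCTG, 3 held CAGATG and 4 held CTGGCAC. A member was counted where any stretch under its symbol matched, whereas the shares of all promoters count single stretches. A match here is a match of letters and not a site shown to be bound.

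Among the remaining myelin protein genes, Nfasc, an adhesion protein of the node of Ranvier that neurons also make, ran from 273 to 328 CPM and was -0.09 ± 0.03 SE on the log2 scale with light averaged over genotypes (edgeR unadjusted p = 0.0162, adjusted p = 0.103). Ermn, a cytoskeletal protein of late oligodendrocytes, and Gjc3, a connexin, were barely above the filter at 0.158 to 1.35 CPM and 0 to 0.823 CPM. Their SD within groups was 0.79 and 1.05 on the log2 scale, against a median of 0.13 over all tested genes and 0.20 over the members, so that differences such as 0.61 ± 0.33 SE for Ermn with light were within error.

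The lipid enzymes other than Ugt8 did not pass. Fa2h, which hydroxylates the fatty acids of myelin galactolipids, ran from 1.75 to 4.03 CPM, and Gal3st1, which adds sulfate to the product of Ugt8, from 2.65 to 5.25 CPM. With light averaged over genotypes they stood at 0.06 ± 0.14 SE and 0.16 ± 0.13 SE on the log2 scale. The rise of Ugt8 was not accompanied by a called change of the enzymes on either side of it.

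Gpr37, a receptor of maturing oligodendrocytes, Sirt2, a deacetylase found in myelin, and Qdpr, a pteridine reductase, were steady, with a log2 SD within groups of 0.12, 0.10 and 0.07. They ran from 37.6 to 50.1 CPM, 124 to 165 CPM and 78.4 to 92.8 CPM. With light averaged over genotypes they stood at -0.02 ± 0.05, 0.07 ± 0.04 and -0.04 ± 0.03 SE on the log2 scale.

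Some members varied within the groups together with markers of neighbouring tissue. Enpp2, or autotaxin, which makes the lipid signal lysophosphatidic acid and is also strongly made by choroid plexus, stood at 63.8, 29.4, 229.8, 57.6 and 27.8 CPM in untreated Nj and 29.03, 242, 26.5, 68.02 and 257 CPM in treated Nj. Levels in jj pups were 28.9, 36.8, 516, 32.4 and 27.6 CPM without light and 29.5, 437, 36.8, 297 and 372 CPM with light. The 7 libraries above 1000 CPM of Ttr held Enpp2 at 229.8 to 516 CPM and the other 13 at 26.5 to 68.0 CPM, so the 2 sets did not overlap. Its SD within groups was 1.66 on the log2 scale, at percentile 99.5 of all tested genes, and the 95% interval of the light difference averaged over genotypes ran from -0.82 to 2.31. The choroid plexus list as a whole, 14 of 15 genes with a row, summed to 27.9 to 4559 CPM in untreated Nj, 27.9 to 10430 CPM in untreated jj, 42.1 to 4348 CPM in treated Nj and 88.9 to 8368 CPM in treated jj.

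Cldn11, the tight junction protein of myelin, which meningeal cells also make, moved with the summed meningeal markers. Cldn11 was lowest at 6.96 CPM in untreated jj 5, where the meningeal sum was 281 CPM, and highest at 30.5 CPM in untreated jj 2, where the sum was 686 CPM. Its log2 difference with light in jj was -0.65 ± 0.35 SE (edgeR adjusted p = 0.449). Lpar1, a receptor for lysophosphatidic acid, was also lowest for its group in untreated jj 5 (10.8 CPM) and highest in untreated jj 2 (23.9 CPM), and stood at -0.50 ± 0.22 SE with light in jj (edgeR unadjusted p = 0.0361, adjusted p = 0.35). Aspa, the enzyme that splits N-acetylaspartate, ran from 1.90 to 7.50 CPM with an SD within groups of 0.63 on the log2 scale. A covariate was fitted next, the mean log2 CPM of the tested meningeal markers. With it, the light difference in jj was 0.27 ± 0.15 SE for Cldn11 and 0.02 ± 0.11 SE for Lpar1. For Aspa it was 0.43 ± 0.19 SE, against -0.37 ± 0.36 SE without the covariate. The negative values of all 3 thus turned positive, and none passed in edgeR.

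**Figure D4:**
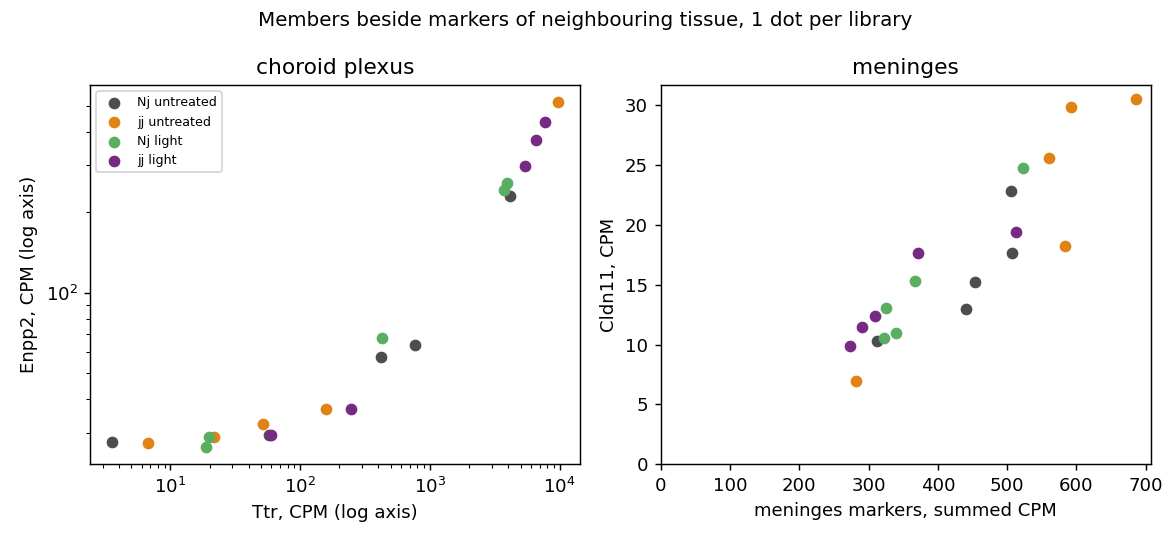
Each dot is 1 library, coloured by group: Enpp2 against Ttr on log axes (left) and Cldn11 against the summed meningeal markers (right), all in CPM. Enpp2 is at 229.8 CPM or more in every library above 1000 CPM of Ttr, and Cldn11 is highest in the library with the highest meningeal sum.

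The number of members that passed with light averaged over genotypes depended most on 1 library, rising from 1 to 5 without it, and it rose to 2 when any 1 of the 4 other libraries named for Tspan2 was left out. Untreated Nj 2 held the highest value of its group for 8 of 13 precursor and 11 of 19 myelinating members. Its median deviation from each gene's mean was 0.20 for the precursor and 0.16 for the myelinating members on the log2 scale. It was alone in its title prefix, but so was untreated Nj 1, with median deviations of -0.14 and -0.12. Untreated Nj 2 also had the lowest meningeal sum (312.8 CPM) and the highest astrocyte sum (2733 CPM) of its group, whose part was not tested. As it was highest in its group for Ugt8, Bcas1, Gpr17, Mbp and Tspan2, leaving it out raises their light differences. Calls gained without it thus follow in part from the choice of library. Without it, light averaged over genotypes called 5 of the 32 members, all higher, against 10.3% of all genes: Ugt8 (0.36 ± 0.06 SE, edgeR adjusted p = 0.000622), Bcas1 (0.29 ± 0.07 SE, adjusted p = 0.00991), Gpr17 (0.25 ± 0.06 SE, adjusted p = 0.0107), Mbp (0.35 ± 0.08 SE, adjusted p = 0.0118) and Tspan2 (0.25 ± 0.08 SE, adjusted p = 0.0468). Light in Nj alone then called 4 members, against 4.24% of all genes, namely Ugt8 (0.35), Bcas1 (0.39), Mbp (0.46) and Gpr17 (0.32), at edgeR adjusted p-values of 0.0221 to 0.0395, and light in jj called Ugt8 (0.37, adjusted p = 0.0452), against 0.488% of all genes. With only the 3 untreated Nj libraries of the prefix J15 in place of all 5, light averaged called 4 of 33 members, Ugt8, Bcas1, Gpr17 and Mbp, a share near the 11.2% of all genes called there, and light in Nj called Ugt8 and Bcas1, against 4.82% of all genes. That fit also leaves out untreated Nj 2. At the other end, untreated jj 5 was lowest in its group for 9 of 13 precursor and 10 of 19 myelinating members.

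**Figure D5:**
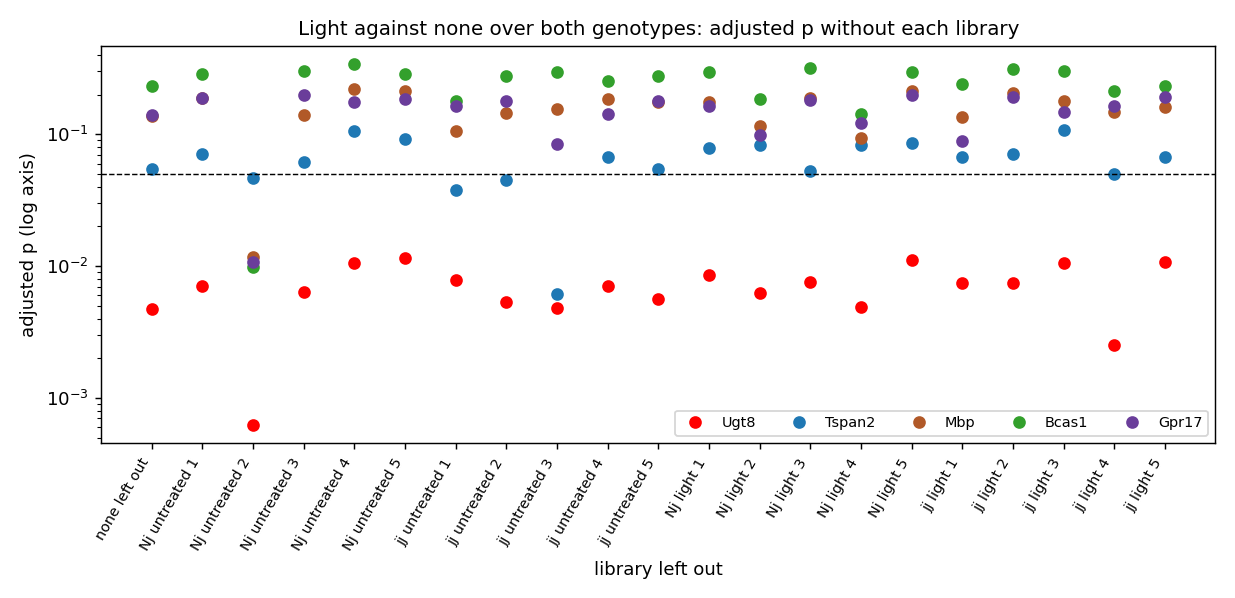
Adjusted p (log axis) of Ugt8, Tspan2, Mbp, Bcas1 and Gpr17 for light against none averaged over both genotypes, with all libraries (left) and with each of the 20 libraries left out in turn. The dashed line is 0.05: Ugt8 stays between 0.000622 and 0.0115, while Mbp, Bcas1 and Gpr17 fall below the line at 1 position each, without untreated Nj 2.

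Most members had higher values in jj than in Nj pups, while light had about as many members on either side of 0. For jj against Nj averaged over light states, 28 of 32 members had a positive value, against 52.4% of all tested genes, with a median of 0.11 on the log2 scale against 0.01. The 4 members with an unadjusted p under 0.05 in edgeR, Pdgfra, Sox10, C1ql1 and Myrf, were all higher in jj, with adjusted p-values of 0.419 to 0.436. The positive values numbered 24 of 32 without light (51% of all genes) and 26 of 32 under light (51.2%). For light averaged over genotypes 19 of 32 were positive (50.4%), with a median of 0.06 against 0.00. By stage, the median for light averaged was 0.03 over 13 precursor and 0.07 over 19 myelinating genes, and for genotype averaged 0.08 and 0.12. The 11 further precursor genes outside the members had 5 positive and 6 negative values for genotype averaged, with a median of -0.00. The 26 tested myelin genes outside the members had 21 positive and 5 negative values there, with a median of 0.08. The members share libraries and cells, and these counts carry no test.

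Further genes of the pathway were read from lists fixed by name. Of 26 tested myelin genes outside the members, 3 rose and 1 fell with light averaged over genotypes (edgeR, all genes 10.1%). Tppp, a tubulin-binding protein of oligodendrocytes, rose from 24.8 ± 2.10 CPM in untreated Nj and 26.4 ± 1.07 in untreated jj to 29.6 ± 1.35 and 30.6 ± 1.33 with light (SD, n = 5, log2 0.24 ± 0.04 SE, edgeR adjusted p = 0.00113). Omg, a myelin glycoprotein that neurons also make, rose by 0.26 ± 0.08 SE on the log2 scale (edgeR adjusted p = 0.0456). Cntn2, a contactin of the region beside the node that is also made by young neurons, fell by 0.32 on the log2 scale (SE 0.05, edgeR adjusted p = 0.0011), from 150.6 ± 12.5 CPM and 148 ± 6.64 CPM to 121 ± 13.7 CPM and 119 ± 13.5 CPM (SD, n = 5).

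Of the 11 further precursor genes, 0 rose and 2 fell with light averaged over genotypes, where 4.35% of all genes rose and 5.74% fell: Vcan, a matrix proteoglycan, by 0.27 and Cacng4, a transmembrane AMPA receptor regulatory protein, by 0.10 on the log2 scale (edgeR adjusted p = 0.00228 and 0.035). Of 24 genes of signals that steer the lineage, 1 rose and 6 fell in the same comparison. The 4 with the lowest p all fell: Dll1, a Notch ligand (log2 -0.29), Adgrg1, an adhesion receptor that keeps precursors dividing (-0.18), Rxrg, a retinoid receptor (-0.23), and Jag1, another Notch ligand (-0.24), at edgeR adjusted p-values of 0.00113 to 0.0104. Of 5 axonal partners of the node, Cntnap1 (0.23) and Cntn1 (0.10) rose and Ank3 (-0.14) fell there. In Nj pups alone, where 4% of all genes passed, Tppp rose (0.25) and Cntn2 (-0.32) and Vcan (-0.31) fell with light, and among the signals Id2 rose (0.25) and 5 others fell. In jj pups alone the lowest edgeR adjusted p in these 4 lists was 0.0896.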

How the data were processed

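The authors deposited 1 table of raw counts, 32883 genes with rat Ensembl identifiers by 20 libraries, which had not been normalised. FastQC, TopHat2 2.0.13 for alignment, Subread for counting and edgeR are the tools named in the submitters' processing notes. The only build in these notes is of mouse, although every identifier is of rat. Which rat build was used is not given in the sources used here, and the only coordinates are those of RefSeq's GRCr8 promoter table. Whether counting used strand is not given in the sources used here.

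Groups came from the labels, in which 1 field writes Nj as Jj. The series text speaks of 6 untreated pups, and the 5 libraries of each group at hand were analysed here. The labels do not say whether pups shared a litter. The p-values set each difference against the spread between libraries within groups, and do not account for any spread between litters. Correlations of log2 CPM between libraries of a group were 0.979 to 0.996, so no library was taken for a copy of another.

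Genes were filtered with filterByExpr by group (minimum count 10), which left 15272, and scaled by TMM. A single quasi-likelihood fit with 1 coefficient per group (edgeR 4.0.16 in R 4.3.3, robust, legacy estimates, 16 residual degrees of freedom) gave 7 contrasts with two-sided F-tests. Benjamini-Hochberg adjustment ran over all genes tested, with a threshold of 0.05. SE is the log2 fold change divided by the root of F, intervals cover 95%, and CPM used TMM-scaled library totals. A prior count of 0.5 entered log2 CPM. Library totals of 16882652 to 27112749 counts set the counting error, which is largest for members with few reads, such as Enpp6 (16 to 43 counts per library), Zfp488 (31 to 82) and Fa2h (37 to 82). Transcript lengths were not used, so levels are compared between libraries and not between genes.

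Members and all gene lists were chosen with earlier results of these data known. Every listed member is named. Values in all libraries are given for called members and for a fixed choice (Pdgfra, Olig2, Sox10, Gpr17, Enpp6, Mbp, Mag, Mog, Mobp, Cnp, Ugt8 and Enpp2), and Tspan2 and Bcas1 were added after their values were seen. From other lists, up to 4 called genes per list and contrast were named, and some results are not reported here. Alternatives were other size factors, filters, DESeq2 1.42.0, the compared groups alone, the J15 libraries alone for untreated Nj, fits without libraries rich in Ttr, a choroid plexus covariate and each library left out in turn. A meninges covariate was chosen after seeing the data. The scripts were tested on simulated data.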

Additional observations from a re-analysis of the deposited data

Results flagged for a closer look

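Within groups of 5 libraries, 6 of 140 tested member and group combinations held a library far from the others by Dixon's 95% limit, and chance alone flags about 1 in 20 groups. Tspan2 stood at 44.9 CPM in untreated jj 3 against 72.5 to 78.5 CPM in the other 4, and at 92.6 CPM in treated jj 3 against 74.2 to 78.2 CPM. Bcas1 stood at 68.4 CPM in untreated Nj 2 against 38.1 to 45.6 CPM. C1ql1 stood at 21.7 CPM in treated Nj 1 against 17.1 to 18.4 CPM. Enpp2 stood at 230 CPM in untreated Nj 3 against 27.8 to 63.8 CPM, and at 516 CPM in untreated jj 3 against 27.6 to 36.8 CPM. Both of these libraries were rich in Ttr, at 4111 and 9662 CPM, and were the only such libraries of their groups.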

How the results depend on the processing

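No paired analysis was possible because the replicate numbers follow accession order and link no libraries of different groups. Ugt8 for light averaged over genotypes passed in all 8 alternatives that could be fitted and in all 20 fits without 1 library, at 0.24 to 0.37 on the log2 scale. Of 6388 member values under 29 alternative settings, 324 changed sign, all in comparisons in which that member did not pass. Of the same values, 26 newly passed and 0 lost a call. Members called for light averaged numbered 2 with a mean count of at least 10, 3 in DESeq2, 4 with the J15 libraries alone, 2 without the Ttr-rich libraries and 2 with the choroid plexus covariate. For light in Nj they numbered 1 with the compared groups alone and 2 with J15 alone, and for light in jj 1 in DESeq2. With 1 library left out they ranged from 1 to 5 for light averaged, 0 to 4 in Nj and 0 to 1 in jj, the highest each time without untreated Nj 2, and stayed at 0 in the other 4 comparisons.

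Genes called for light in jj (25) numbered 14 with DESeq2 size factors, 271 in DESeq2, 3 with the compared groups alone, 72 with J15 alone, 0 without the Ttr-rich libraries (which left 2 treated and 4 untreated jj libraries), 73 with the choroid plexus covariate and 0 with the meninges covariate. For light in Nj (611) they numbered 1009 in DESeq2 and 112 without the Ttr-rich libraries, and for light averaged (1541) 424 without those and 883 with the meninges covariate. DESeq2 called 1 gene for jj against Nj untreated and 2 under light. With 1 library left out, genes called ranged from 0 to 75 for light in jj (0 without untreated jj 4, 75 without untreated Nj 2), 152 (without untreated Nj 4) to 1070 (without untreated jj 3) in Nj, 1020 to 1697 averaged, and 0 to 1 for jj against Nj untreated, under light and for the interaction. The cause of these shifts was not tested. For averaged and interaction contrasts a fit of the compared groups alone is the fit over all 20 libraries. Depth limits Mog, Mobp, Opalin, Ermn, Gjc3, Enpp6, Zfp488 and Fa2h, which rest on few reads.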

Other observations

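Transferrin carries iron to oligodendrocytes and is listed by RefSeq under Tf, with Trf, a listed symbol without a row, as a synonym. Tf stood at 89.5, 48.05, 183, 47.04 and 43.8 CPM in untreated Nj and 45.98, 203, 46.5, 47.6 and 199 CPM in treated Nj. In jj pups it stood at 45.9, 48.4, 326, 44.6 and 41.02 CPM without light and 44.8, 281, 53.4, 204 and 279 CPM with light. The 7 libraries above 1000 CPM of Ttr held Tf at 183 to 326 CPM and the other 13 at 41.0 to 89.5 CPM, the same split of libraries as for Enpp2. The log2 difference with light averaged over genotypes was 0.59 ± 0.54 SE, with an edgeR adjusted p of 0.54.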
